A study of Mus musculus with 2 samples.

Results

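The genes of the Wnt pathway were followed here through chromatin accessibility in mouse prostate tumor cells. The set held 48 of the 21887 protein-coding genes on chromosomes 1 to 19, X and Y: 19 Wnt ligands, 15 receptors, 9 inhibitors and 5 nuclear effectors. Each was examined over its mm10 gene body with 10 kb on either side, its locus. ATAC-seq, in which a transposase cuts and tags open DNA, was performed on prostate tumor cells of C57BL/6 mice treated with tamoxifen for 2 weeks (W2, the early stage) or for 6 months (M6, the late stage). Both groups share the strain and the drug. The sources used here do not give the genotype, what tamoxifen induces, the number of mice or whether the cells were cultured. The stages are those of progression to neuroendocrine prostate cancer (NEPC), in which tumor cells carry nerve and hormone-cell markers. With 1 library per stage there was no replicate, W2 and M6 could not be tested against each other, and intervals cover counting error only.

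Wnt proteins are secreted, lipid-modified ligands that bind Frizzled receptors together with the co-receptors Lrp5 and Lrp6. Without a ligand, a complex of Apc, Axin and the kinase Gsk3b marks β-catenin for degradation. With a ligand, β-catenin builds up, enters the nucleus and acts with the TCF/LEF factors on target genes. In the prostate the pathway is known for its part in budding of the gland and in advanced cancer.

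The deposited lists held 5735 W2 and 22570 M6 peaks on these chromosomes. Read depth is unknown. The lowest local background recovered from the peak statistics, a measure of relative depth, was 2.96 tags in W2 and 2.65 in M6. A peak's pileup, the number of tags over its summit, started at 12 in W2 and 10 in M6, so the lack of a peak means a signal under the calling threshold and need not mean closed chromatin. The marker lists were uneven. A locus peak was present at 6 (W2) and 8 (M6) of 12 luminal epithelial genes, at 1 and 9 of 12 neuroendocrine genes, and at 1 and 3 of 6 basal genes. Leukocyte genes had one at 2 of 8 in both libraries, with none at Ptprc, fibroblast and smooth muscle genes at 0 of 8 and 2, and endothelial genes at 2 of 6 and 3. Over all protein-coding genes the shares were 29.6% (W2) and 59.1% (M6). With M6 cut to its 5735 strongest peaks, a locus peak remained at 2 luminal, 3 neuroendocrine and 1 basal gene. The M6 counts for leukocyte, fibroblast and smooth muscle, and endothelial genes were then 1, 0 and 2. Over all protein-coding genes the M6 share was then 27.4%. No marker of the last 3 lists had a gene-end peak in either library, and the luminal genes Hoxb13 and Pbsn had no locus peak in either. The part of other cell types in the results below was not tested.

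Wnt loci had peaks at more genes in M6, to about the same degree as genes in general. Of the 48 members, 12 had a locus peak in W2 (25.0%, exact binomial 95% interval 13.6 to 39.6%), against 29.6% of all protein-coding genes. In M6 there were 26 (54.2%, 39.2 to 68.6%), against 59.1% of all genes. A peak in both libraries was found at 11 members (28.6% of all genes), in M6 alone at 15 (30.5%), in W2 alone at 1 (0.973%) and in neither at 21 (39.9%). The number of locus peaks was higher in M6 at 22 members (44.4% of all genes) and lower at 2 (1.9%). In all, the loci held 16 W2 and 47 M6 peaks. Per 100 kb of locus this was 0.459 peaks in W2 (exact Poisson 95% interval 0.262 to 0.745) and 1.35 in M6 (0.9902 to 1.79), against 0.390 and 1.35 over the loci of all protein-coding genes.

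**Figure D1:**
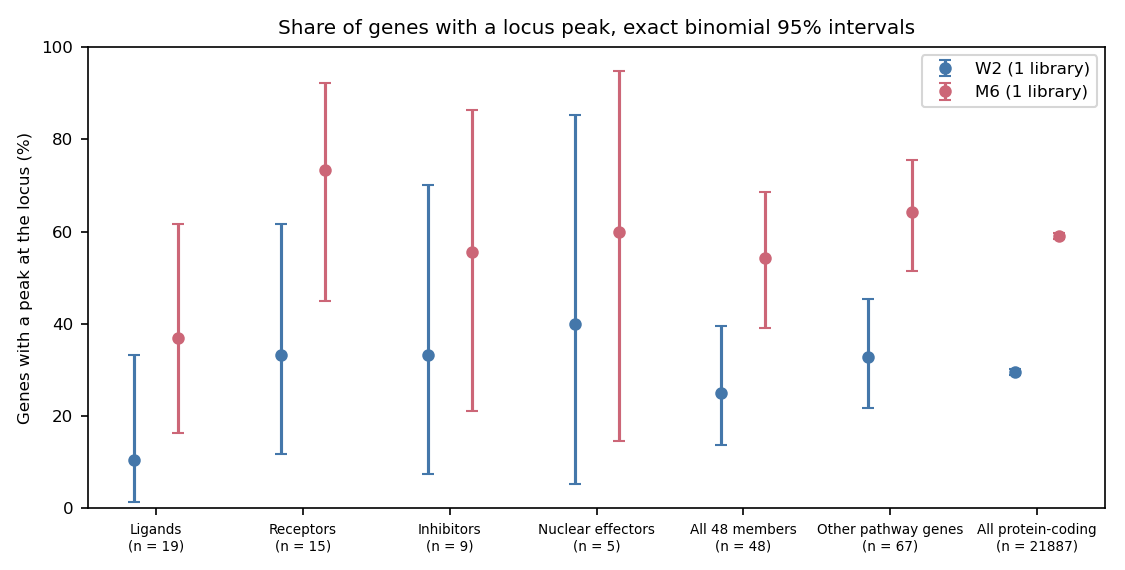
Percentage of genes with at least 1 peak at the locus (y axis) in the W2 and M6 libraries for each role, all 48 members, 67 other pathway genes and all 21887 protein-coding genes. Points are shares of genes in 1 library and bars are exact binomial 95% intervals, which show that the M6 shares run from 36.8% of ligands to 73.3% of receptors, with wide, overlapping intervals.

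The M6 list is also the longer one, so the counts were taken again with lists of equal length. Such a cut brings the shares over all genes close by construction, so it could not show a general rise. It also sets W2 peaks with a −log10 q from 1.47 against the strongest M6 peaks alone. When M6 was cut to its 5735 strongest peaks (−log10 q of 10.8 or more), a locus peak remained at 10 members (27.4% of all genes), against 12 in W2 (29.6%). The 10 were Wnt6, Fzd4, Fzd7, Lrp5, Lgr4, Znrf3, Apc, Axin1, Gsk3b and Tcf7l1. Gene-end peaks, within 1 kb of an annotated end of the gene, were found at 5 members in W2 and 15 in M6 (18.4% and 39.7% of all genes), and at 5 in both once the lists were equal in length (18.4% and 16.5%).

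The members with a peak at the gene start in both libraries were mostly receptors. RefSeq promoter sequences (GRCm38.p6, the assembly that mm10 names), from 250 bases before to 50 after a gene's start, were matched for 33 of the 48 members, with 43 windows. The receptors Fzd2, Fzd3, Fzd6, Fzd8, Lrp5, Lrp6 and Lgr5 had no window. A W2 peak overlapped a window of 4 members and an M6 peak a window of 9, against 18.3% and 38.3% of the 17492 protein-coding genes with a window. The 4 with a peak in both libraries were Lgr4 (chr2:109917397-109917696, plus strand), Fzd4 (chr7:89404116-89404415, plus strand), Fzd7 (chr1:59481897-59482196, plus strand) and Gsk3b (chr16:38088751-38089050, plus strand). Their windows are shown because they are the starts of this set that had a peak at both stages. Capitals mark the CCAAT box, searched as CCAAT on both strands (ATTGG on the strand printed).
Lgr4: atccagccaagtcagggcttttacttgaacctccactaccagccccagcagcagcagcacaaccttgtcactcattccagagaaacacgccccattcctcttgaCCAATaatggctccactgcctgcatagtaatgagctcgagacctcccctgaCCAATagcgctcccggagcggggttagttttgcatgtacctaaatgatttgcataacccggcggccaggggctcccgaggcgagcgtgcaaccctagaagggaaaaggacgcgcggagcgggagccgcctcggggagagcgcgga
Fzd4: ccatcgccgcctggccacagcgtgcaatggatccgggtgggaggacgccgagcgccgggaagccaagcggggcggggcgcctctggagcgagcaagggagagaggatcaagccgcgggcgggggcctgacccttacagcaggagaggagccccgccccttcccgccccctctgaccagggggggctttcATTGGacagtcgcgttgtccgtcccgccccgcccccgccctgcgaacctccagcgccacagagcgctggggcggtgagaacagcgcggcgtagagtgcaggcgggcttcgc
Fzd7: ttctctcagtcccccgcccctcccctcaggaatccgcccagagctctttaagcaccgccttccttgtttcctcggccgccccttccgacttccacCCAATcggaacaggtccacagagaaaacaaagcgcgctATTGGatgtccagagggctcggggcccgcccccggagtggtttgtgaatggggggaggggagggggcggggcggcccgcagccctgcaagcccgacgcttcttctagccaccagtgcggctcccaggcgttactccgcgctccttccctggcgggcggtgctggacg
Gsk3b: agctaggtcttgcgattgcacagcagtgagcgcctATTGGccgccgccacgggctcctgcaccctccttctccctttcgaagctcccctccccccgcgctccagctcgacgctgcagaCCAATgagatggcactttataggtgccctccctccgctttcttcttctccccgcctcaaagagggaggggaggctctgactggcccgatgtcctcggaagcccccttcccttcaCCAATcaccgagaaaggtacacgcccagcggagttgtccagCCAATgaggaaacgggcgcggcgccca
All 4 windows held a CCAAT box, with 2 in Lgr4, 1 in Fzd4, 2 in Fzd7 and 4 in Gsk3b. Over the whole set 14 of 43 member windows held one, and 8 of the 34 without a peak. The box was found in 38.2% of the 21263 windows of all protein-coding genes. It was found in 56.8% of the 3385 windows with a peak in both libraries and in 34.5% of the 13542 with none. None of the 4 held a TCF/LEF motif, searched as CTTTGAT or CTTTGAA on both strands, which was found in 7.57% of all windows.

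For comparison, a window with a peak in M6 alone is shown for each role that had one and was matched: Wnt2b among ligands (chr3:104961660-104961959, minus strand), Fzd5 among receptors (chr1:64737701-64738000, minus strand) and Tcf7l1 among nuclear effectors (chr6:72788996-72789295, minus strand). Capitals again mark the CCAAT box.
Wnt2b: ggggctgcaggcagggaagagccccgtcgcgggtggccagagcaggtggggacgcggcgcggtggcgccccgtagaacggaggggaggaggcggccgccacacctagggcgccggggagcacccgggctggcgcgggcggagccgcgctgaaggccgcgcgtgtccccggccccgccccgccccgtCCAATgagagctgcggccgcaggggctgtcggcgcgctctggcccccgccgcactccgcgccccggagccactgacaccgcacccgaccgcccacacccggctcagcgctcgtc
Fzd5: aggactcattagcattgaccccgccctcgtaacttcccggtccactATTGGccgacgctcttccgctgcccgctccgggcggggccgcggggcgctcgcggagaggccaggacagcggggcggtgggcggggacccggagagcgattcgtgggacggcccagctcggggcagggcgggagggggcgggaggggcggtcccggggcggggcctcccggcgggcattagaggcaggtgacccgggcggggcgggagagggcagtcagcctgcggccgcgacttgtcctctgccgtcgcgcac
Tcf7l1: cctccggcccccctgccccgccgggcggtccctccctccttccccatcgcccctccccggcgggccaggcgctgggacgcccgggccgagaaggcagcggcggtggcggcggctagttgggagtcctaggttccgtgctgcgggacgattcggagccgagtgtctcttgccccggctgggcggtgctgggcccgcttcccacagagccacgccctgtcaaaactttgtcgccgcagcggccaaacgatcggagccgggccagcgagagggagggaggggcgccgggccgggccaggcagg
Wnt2b and Fzd5 held 1 CCAAT box each and Tcf7l1 none. Among the 5 member windows with a peak in M6 alone, which also include those of Fzd1 and Lef1, 2 held a box, against 35.4% of all windows of that kind. The M6 peak covered 7 bases of the Lef1 window. The SP/KLF motif GGGCGG, searched on both strands, was found in 31 of the 43 member windows, against 46.2% of all windows. Of the other motifs searched on both strands, TCF/LEF was found in 3, AP-1 (TGANTCA) in 1, the E-box CAGCTG in 5 and the forkhead motif TGTTTAC in 1 of the 43 member windows, against 7.57%, 6.99%, 15.6% and 3.01% of all windows. Member windows were rich in CpG whether or not they had a peak. The median number of CpG dinucleotides was 22.5 in the 4 windows with a peak in both libraries (range 18 to 32), 34 in the 5 with an M6 peak alone (8 to 43) and 25 in the 34 with none (3 to 58). Over all protein-coding genes these medians were 24, 22 and 6. Windows of 1 gene can overlap and share bases.

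Wnt ligands had the lowest share of genes with a peak of the 4 roles in both libraries. Of 19 ligand genes 2 had a locus peak in W2 (10.5%, 1.30 to 33.1%) and 7 in M6 (36.8%, 16.3 to 61.6%), with 2 and 8 peaks in all, and these intervals include the shares of all genes (29.6% and 59.1%). The median ligand gene was 22.9 kb, against 17.2 kb over all genes. Ligand loci held 0.217 (W2) and 0.869 (M6) peaks per 100 kb, against 0.390 and 1.35 over all genes. Gene-end peaks were found at 0 ligands in W2 and at 3 in M6. Wnt6, a ligand made by epithelia, had 1 peak in each library at the same place inside the gene. In W2 it lay at chr1:74773179-74773404 with a fold over local background of 5.34, a −log10 q of 9.35, a pileup of 27 tags and a background of 4.24. In M6 it lay at chr1:74773144-74773440 with a fold of 6.33, a −log10 q of 13.1, a pileup of 29 tags and a background of 3.74. The W2 summit was 1404 bases after the nearest annotated start and the M6 summit 1385 bases. Wnt6 was the 1 ligand with an M6 peak when the lists were equal in length by −log10 q.

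The Wnt10b locus had peaks only in its flank, near the end of the neighbouring gene Arf3. Its W2 peak (chr15:98762231-98762496) reached a fold of 4.91, a −log10 q of 6.31, a pileup of 20 tags and a background of 3.28. The stronger of 2 M6 peaks (chr15:98763098-98763411) reached a fold of 5.73, a −log10 q of 10.3, a pileup of 25 tags and a background of 3.54, and lay 0.602 kb from the nearest W2 peak. The weaker one overlapped the W2 peak, with 17 tags. Wnt10a, which shares part of its locus with Wnt6, had an M6 peak alone at one end of the gene (chr1:74803070-74803269, fold 4.63, −log10 q 7.39, pileup 23 tags, background 4.18).

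The other ligands with an M6 peak had 1 each and none in W2. These were Wnt2 (−log10 q 6.94, inside the gene), Wnt2b (4.86, with its summit at -44 bases from the start), Wnt3 (4.77, inside the gene) and Wnt16 (3.97, with its summit 738 bases after the start). Their pileups ran from 14 to 18 tags. The 12 ligands with no locus peak in either library were Wnt1, Wnt3a, Wnt4, Wnt5a, Wnt5b, Wnt7a, Wnt7b, Wnt8a, Wnt8b, Wnt9a, Wnt9b and Wnt11. Wnt5a, the main ligand of the β-catenin-independent branch, was 53.6 kb from the nearest M6 peak and 681 kb from the nearest W2 peak. Wnt1 and Wnt10b, Wnt3 and Wnt9b, Wnt3a and Wnt9a, and Wnt6 and Wnt10a lie as neighbours with overlapping loci. No peak was counted for more than 1 member.

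**Figure D2:**
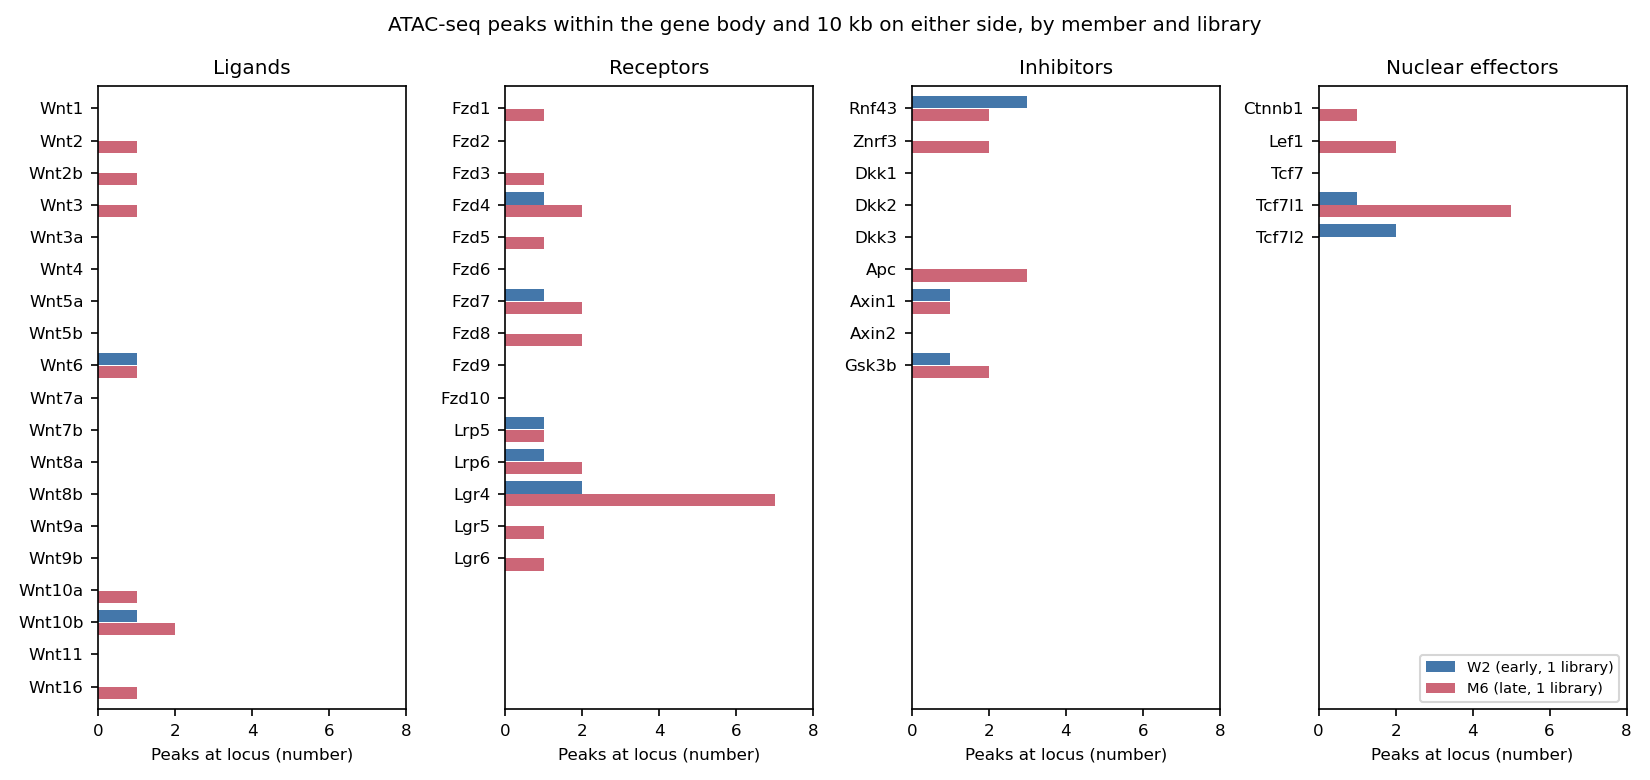
Number of peaks at the locus (x axis) of each of the 48 members (y axis) in the W2 and M6 libraries, 1 library each, in a panel per role. Lgr4 has 7 M6 peaks and Tcf7l1 5, most ligands have none, and Rnf43 and Tcf7l2 are the members with more W2 than M6 peaks.

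Of 15 receptor genes 5 had a W2 peak at the locus (33.3%, 11.8 to 61.6%) and 11 an M6 peak (73.3%, 44.9 to 92.2%), with 6 and 21 peaks in all, and these intervals include the 29.6% and 59.1% of all genes. The median receptor gene was 7.19 kb, against 17.2 kb over all genes. Receptor loci held 0.591 (W2) and 2.07 (M6) peaks per 100 kb, against 0.390 and 1.35 over all genes. Lgr4, a receptor for the R-spondins that amplify Wnt signals, had the strongest peak of the whole set by −log10 q and fold, while Gsk3b had the highest pileup. At its start W2 had a peak at chr2:109917296-109917811 with a fold of 6.49, a −log10 q of 12.8, a pileup of 30 tags (exact Poisson 95% interval 20.2 to 42.8) and a background of 3.78. M6 had one at chr2:109917340-109917807 with a fold of 9.35, a −log10 q of 36.3, a pileup of 62 tags (47.5 to 79.5) and a background of 5.74. It ranked 87 among the 22570 M6 peaks. The intervals of the 2 pileups did not overlap, and the local background was also higher in M6. Pileup was higher in M6 at 85.8% of all 4618 shared W2 sites. Inside Lgr4 and beside it the libraries had no site in common. W2 had 1 more peak, 14.96 kb after the start with 16 tags, and M6 had 6 more.

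Of those 6 M6 peaks at Lgr4, 4 weak ones lay between 24.7 and 36.3 kb after the start, with −log10 q values from 3.92 to 5.90. A strong one lay near the far end of the gene, 94.7 kb after the start (chr2:110012181-110012554, fold 7.51, −log10 q 21.9, pileup 43 tags, background 4.86), 79.5 kb from the nearest W2 peak. The last lay beyond the gene, near an end of Ccdc34 (−log10 q 7.82). The related receptors Lgr5, a stem cell marker of the gut, and Lgr6 had 1 M6 peak each and none in W2, at one end of Lgr5 (−log10 q 5.34, 17 tags) and inside Lgr6 (3.62, 14 tags).

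Among the Frizzled genes, Fzd4 and Fzd7 had start peaks at both stages. Fzd4, which serves Wnt and norrin ligands, had a W2 peak at chr7:89404115-89404402 with a fold of 5.94, a −log10 q of 10.9, a pileup of 28 tags (18.6 to 40.5) and a background of 3.88. Its stronger M6 peak at chr7:89403965-89404645 reached a fold of 7.80, a −log10 q of 25.0, a pileup of 48 tags (35.4 to 63.6) and a background of 5.28. The M6 pileup was higher, with overlapping counting intervals, and an end of Tmem135 lies within 1 kb of both peaks. A weaker M6 peak, also near Tmem135, had its summit at -659 bases from the Fzd4 start (−log10 q 3.82, 20 tags). Fzd7 had a W2 peak at chr1:59481894-59482146 with a fold of 6.33, a −log10 q of 12.1, a pileup of 29 tags and a background of 3.74. Its M6 start peak at chr1:59481928-59482270 reached a fold of 6.13, a −log10 q of 13.4, a pileup of 31 tags and a background of 4.22, so the 2 libraries gave nearly the same value there. A second M6 peak lay beyond the gene, 7.73 kb after the start (−log10 q 8.07).

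Fzd1, Fzd3, Fzd5 and Fzd8 had gene-end peaks in M6 alone. The strongest, at Fzd5, was 1008 bp wide with a −log10 q of 8.11 and 26 tags. Fzd1 followed with a −log10 q of 6.34 and 19 tags, Fzd8 with 5.96 and 21 tags, and Fzd3 with 5.01 and 18 tags. Fzd8 had another, weaker gene-end peak (−log10 q 2.73, 16 tags). Fzd2, Fzd6, Fzd9 and Fzd10 had no locus peak in either library. The peaks of Fzd1, Fzd3, Fzd5 and Fzd8 were all weaker than the 5735 strongest of M6.

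The co-receptor loci had peaks at both stages, mostly outside the genes. Lrp5 had 1 peak in each library, 8.88 kb (W2) and 8.43 kb (M6) beyond the gene and at an end of Ppp6r3. The W2 peak (chr19:3575715-3575945) reached a fold of 4.50, a −log10 q of 5.33, 19 tags and a background of 3.44. The M6 peak (chr19:3575543-3576394) reached a fold of 5.61, a −log10 q of 12.6, 32 tags and a background of 4.88. Lrp6 had a weak W2 peak 2.78 kb beyond the gene (chr6:134443295-134443693, fold 3.70, −log10 q 2.97, 15 tags, background 3.32). A weak M6 peak of 15 tags lay 0.294 kb from it, without overlap. The stronger M6 peak of Lrp6 lay inside the gene (chr6:134504928-134505153, fold 5.10, −log10 q 7.08, 19 tags, background 2.92).

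Inhibitors had a locus peak at 3 of 9 genes in W2 (33.3%, 7.49 to 70.1%) and 5 in M6 (55.6%, 21.2 to 86.3%), with 5 and 10 peaks in all. These shares are close to those of all genes (29.6% and 59.1%), but the genes are longer. The median inhibitor gene was 72.5 kb, against 17.2 kb over all genes. Per 100 kb of locus, inhibitors had 0.544 peaks in W2 and 1.09 in M6, against 0.390 and 1.35 over all genes. By −log10 q the strongest inhibitor peak was that of Axin1 in W2 and that of Gsk3b in M6, both genes of the β-catenin destruction complex. Gsk3b, the kinase of the complex, had a start peak at both stages. In W2 it spanned chr16:38088752-38089442 with a fold of 4.21, a −log10 q of 6.05, a pileup of 24 tags (15.4 to 35.7) and a background of 4.94. In M6 it spanned chr16:38088355-38089567, 1213 bp against 691 bp, with a fold of 6.71, a −log10 q of 29.9, a pileup of 67 tags (51.9 to 85.1) and a background of 9.14. The pileup intervals did not overlap, and the background around the site was also higher in M6. At 85.8% of all 4618 shared W2 sites the pileup was higher in M6. A further M6 peak lay inside the gene, 134 kb after the start (−log10 q 7.74).

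Axin1, the scaffold of the complex, had 1 peak in each library at the same place inside the gene. The W2 peak (chr17:26138377-26138677) reached a fold of 6.31, a −log10 q of 10.2, 24 tags and a background of 2.96. The M6 peak (chr17:26138314-26138860) reached a fold of 6.73, a −log10 q of 15.2, 32 tags and a background of 3.90. Axin2, its paralog and a standard readout of β-catenin activity, had no locus peak in either library. It was 60.8 kb from the nearest W2 peak and 29.7 kb from the nearest M6 peak. Apc, the tumor suppressor of the complex, had 3 M6 peaks and none in W2, of which the strongest (chr18:34330937-34331260, fold 7.95, −log10 q 18.7, 34 tags, background 3.40) lay 8.75 kb beyond the gene at an end of Srp19. The others had a −log10 q of 4.56 (at one end of Apc) and 7.37 (inside).

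The membrane ligases Rnf43 and Znrf3, which remove Frizzled receptors from the cell surface, differed in their peaks. Rnf43 was the member with the most W2 peaks, 3, against 2 in M6. A W2 peak with its summit at -467 bases from an annotated start (chr11:87662498-87662697, −log10 q 5.55, 18 tags) and one inside the gene (chr11:87709991-87710241, fold 5.19, −log10 q 7.13, 21 tags, background 3.24) had no M6 counterpart, with the nearest M6 peaks 26.8 and 20.2 kb away. The third was shared. In W2 it had 17 tags (−log10 q 4.60), and in M6 (chr11:87689501-87689815) a fold of 6.03, a −log10 q of 9.41, 21 tags and a background of 2.65. The second M6 peak, beyond the gene and near Supt4a, was weak (−log10 q 2.98, 13 tags). Znrf3 had 2 M6 peaks and none in W2, the stronger at one end of the gene (−log10 q 11.2, 28 tags). The secreted Lrp5/6 antagonist genes Dkk1 and Dkk2, and Dkk3, had no locus peak in either library.

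**Figure D3:**
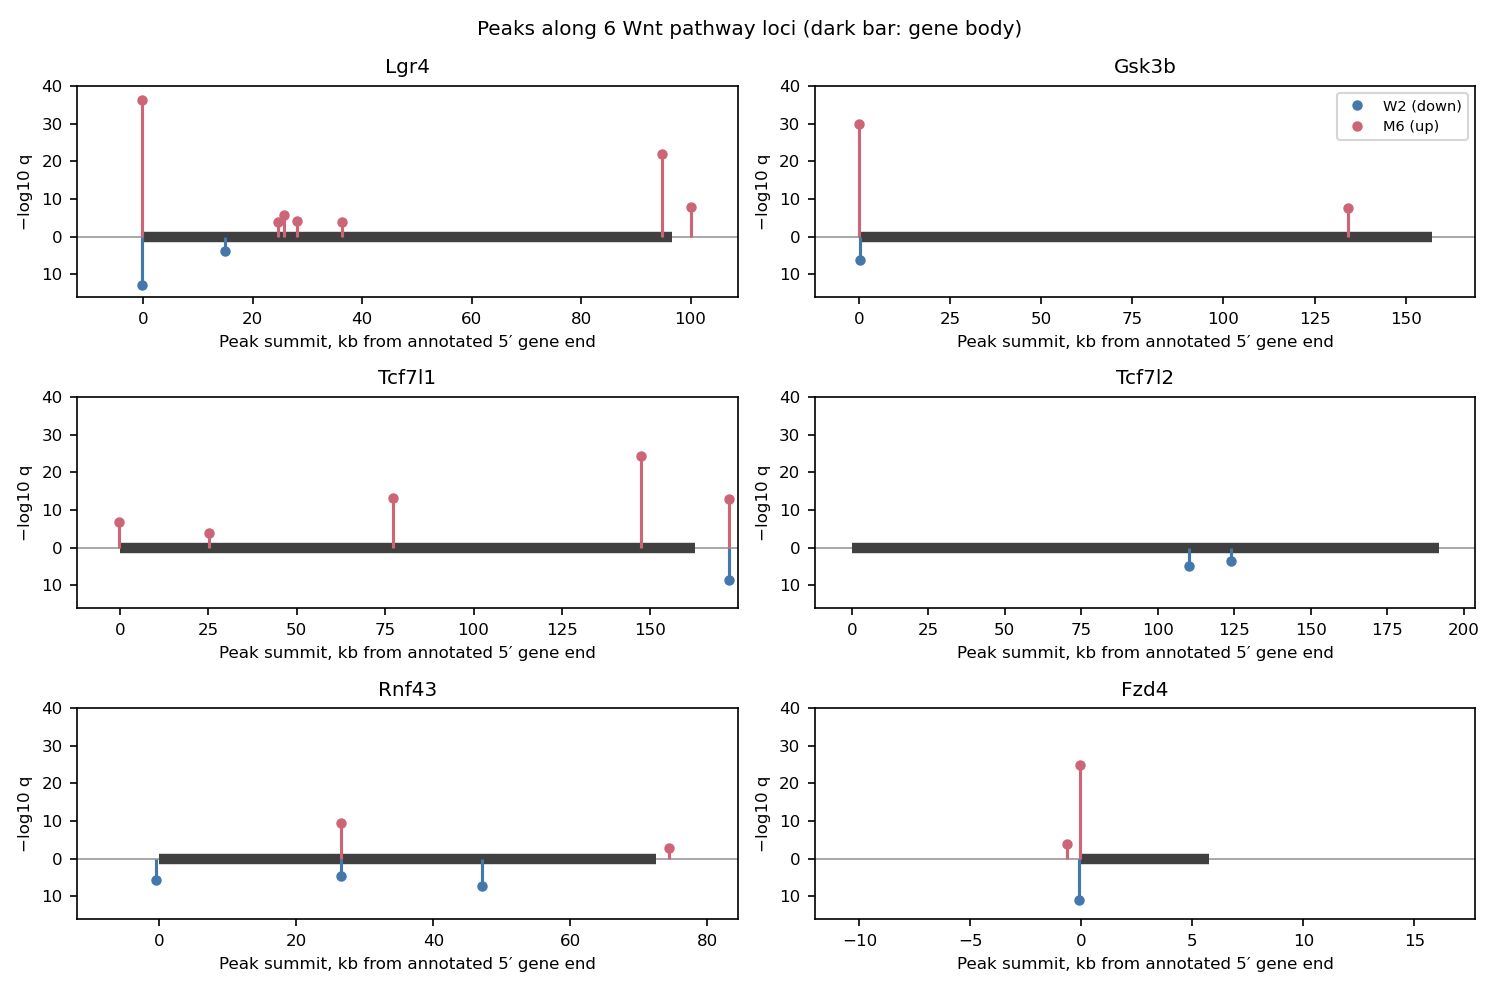
Peak summits along 6 loci, in kb from the annotated 5′ end of the gene (x axis), with the height of each line giving the −log10 q of the peak (M6 upward, W2 downward, 1 library each) and the dark bar the gene body. The start peaks of Lgr4, Gsk3b and Fzd4 occur in both libraries with a higher −log10 q in M6, Tcf7l1 has 5 M6 peaks, and Tcf7l2 has W2 peaks alone.

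Nuclear effectors had a locus peak at 2 of 5 genes in W2 (40%, 5.27 to 85.3%) and 3 in M6 (60.0%, 14.7 to 94.7%), with 3 and 8 peaks in all, against 29.6% and 59.1% of all genes. Their median gene length was 114 kb, against 17.2 kb over all genes. Per 100 kb of locus they had 0.474 (W2) and 1.26 (M6) peaks, against 0.390 and 1.35. The TCF genes differed among themselves. Tcf7l1, a TCF factor that mostly represses targets, had 5 M6 peaks. The strongest (chr6:72641537-72641923, fold 8.27, −log10 q 24.2, 44 tags, background 4.44) and the next (chr6:72711467-72711904, −log10 q 13.2, 29 tags) lay inside the gene, 147 and 77.3 kb after the start. Others lay inside it with a −log10 q of 4.03 and at its start with 6.86. Its 1 W2 peak, 9.46 kb beyond the gene and near an end of Tgoln1 (chr6:72616646-72616908, fold 5.33, −log10 q 8.66, 25 tags, background 3.88), was shared with M6 (12.9, 30 tags). None of the 4 M6 peaks in the gene or at its start had a W2 counterpart.

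Tcf7l2, a TCF factor of the gut and many epithelia, was the 1 member with peaks in W2 alone. Both lay inside the gene and were weak. The stronger by −log10 q (chr19:55851791-55852029) reached a fold of 4.54, a −log10 q of 4.85, 17 tags (9.90 to 27.2) and a background of 2.96. The other (chr19:55865717-55865977) reached a fold of 3.56, a −log10 q of 3.52, 19 tags and a background of 4.62. The nearest M6 peak was 257 kb from the second of these W2 peaks and 189 kb from the gene. Both fall away at a −log10 q of at least 5, and a region with under 10 tags would not be in the M6 list.

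Lef1, the lymphoid enhancer factor of the family, had 2 weak M6 peaks and none in W2. The stronger (chr3:131112111-131112547) reached a fold of 4.34, a −log10 q of 4.86, 16 tags and a background of 2.92, and its summit lay at -374 bases from an annotated internal start and 2.12 kb after the first one. Ctnnb1, the β-catenin gene, had no W2 peak and 1 M6 peak, 6.16 kb outside the gene (chr9:120927015-120927244, fold 4.38, −log10 q 4.67, 15 tags, background 2.65). Its 2 annotated start windows held no peak in either library. Tcf7, the T-cell TCF factor, had no locus peak in either.

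Shared sites were the majority in W2 and the minority in M6. Of the 16 W2 peaks 10 overlapped an M6 peak (62.5%, 35.4 to 84.8%), against 80.5% of all W2 peaks, and of the 47 M6 peaks 10 overlapped a W2 peak (21.3%, 10.7 to 35.7%), against 20.2% of all M6 peaks. By position, 4 of the 5 W2 peaks at gene ends, 3 of the 7 inside genes and 3 of the 4 in the flanks had an M6 counterpart. The matching shares by position over all W2 peaks were not counted. The 6 W2 peaks without one had 15 to 21 tags, while the 37 such M6 peaks had 13 to 44. At the 10 shared sites the median pileup was 24.5 tags in W2 and 31.5 in M6, higher in M6 at 9 and lower at 1. The median log2 ratio of M6 over W2 pileup was 0.36, against 0.55 at all 4618 shared W2 sites, where M6 was higher at 85.8%. The ratio was 1.48 at Gsk3b, 1.05 at Lgr4, 0.78 at Fzd4, 0.75 at Lrp5, 0.42 at Axin1, 0.30 at Rnf43, 0.26 at Tcf7l1, 0.10 at Wnt6 and Fzd7 and -0.23 at Wnt10b. Counting intervals of W2 and M6 pileups were apart at Gsk3b and Lgr4 and overlapped at the other 8. Over all 4618 shared W2 sites the log2 ratio ran from -1.13 to 3.70. How often the intervals were apart over all these sites was not counted. Whether Gsk3b and Lgr4 stand out from shared sites in general was therefore not tested.

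**Figure D4:**
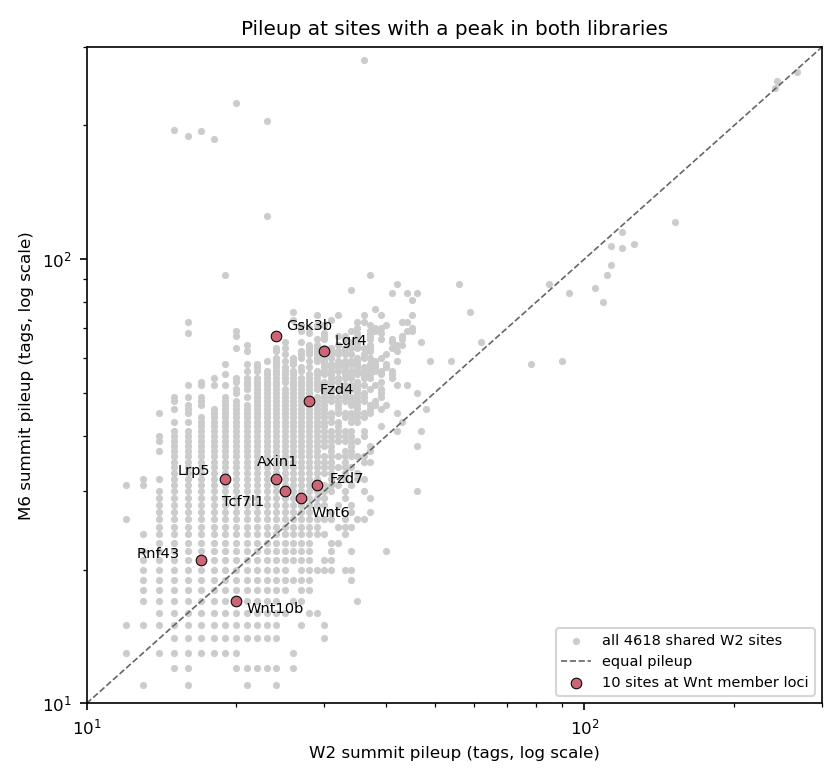
Summit pileup in tags at sites with a peak in both libraries, W2 on the x axis and M6 on the y axis (both log scales), with the 10 sites at Wnt loci named and all 4618 shared W2 sites in grey. Gsk3b (24 and 67 tags), Lgr4 (30 and 62) and Fzd4 (28 and 48) lie farthest above the dashed line of equal pileup, and Wnt10b (20 and 17) lies below it.

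Peaks of neighbouring genes entered some loci. Of the distinct peaks, 4 in W2 and 9 in M6 lay within 1 kb of an end of another protein-coding gene. No member peak had a local background of 3 times its library median or more. The highest was 4.94 tags in W2 and 9.14 in M6, both at Gsk3b, against library medians of 3.44 and 3.52. The peak nearest inside the 10 kb border was the W2 peak of Tcf7l1 (9.46 kb), and the nearest outside was an M6 peak 12.3 kb from Fzd4 (−log10 q 2.06).

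Other genes of the pathway, a list of 67, had a locus peak at 22 genes in W2 (32.8%, 21.9 to 45.4%) and at 43 in M6 (64.2%, 51.5 to 75.5%), against 29.6% and 59.1% of all genes. Relay genes of the cytoplasm had peaks in W2 at 10 of 16 and in M6 at 14 (7 with lists of equal length). Over all genes, 27.4% had an M6 locus peak with lists of equal length. Those with W2 peaks were Dvl3, Csnk1a1, Csnk1e, Gsk3a, Amer1, Tnks, Daam1, Btrc, Fbxw11 and Ctnnbip1. The strongest were Daam1, a formin of the polarity branch (−log10 q 12.3 in W2 and 33.1 in M6), and Tnks, the tankyrase that marks Axin for degradation (15.2 and 25.7). Csnk1e, a casein kinase, had a W2 peak alone (3.18).

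For the lists that follow, 29.6% (W2) and 59.1% (M6) of all protein-coding genes had a locus peak. With lists of equal length the M6 share was 27.4%. Nuclear co-factor genes had a median length of 46.2 kb, against 17.2 kb for all genes. Of the 11, 5 had W2 peaks and 10 had M6 peaks (6 with lists of equal length). They included Chd8, a remodeler that binds β-catenin (15.4 in W2 and 28.0 in M6), Tle1, Tle3 and Tle4, the Groucho co-repressors, and Bcl9l (5.21, in W2 alone). Of 13 co-receptor and polarity genes, 2 had W2 peaks (Ptk7 and Celsr3) and 8 had M6 peaks (4 with lists of equal length). Their median length was 97.2 kb. Their loci held 0.144 (W2) and 1.01 (M6) peaks per 100 kb, against 0.390 and 1.35 over all genes. Ror1, a receptor for Wnt5a with a gene of 349 kb, had 5 M6 peaks (strongest 22.7) and none in W2. Inhibitors outside the members, some secreted and some in the membrane, had peaks at 3 of 14 in W2 (Notum, Apcdd1 and Kremen2). In M6 there were 7 (2 with lists of equal length). The strongest was at Notum, the enzyme that strips the lipid from Wnt proteins (7.83 in W2 and 23.2 in M6).

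The lists for ligand secretion, R-spondins and targets were short. Of all protein-coding genes, 29.6% (W2) and 59.1% (M6) had a locus peak. Wls, the carrier of Wnt proteins to the cell surface, had 1 W2 peak (8.79) and 3 M6 peaks (strongest 10.8), and Porcn, the enzyme that adds the lipid, had none. R-spondin genes had a peak at 0 of 4 in W2 and 1 in M6, Rspo3. The list of target genes, which leaves out targets placed in other lists such as Axin2 and Notum, had a peak at 1 of 7 in W2 (Bmp4, 3.98, absent from the M6 list) and 2 in M6 (Tnfrsf19 and Prox1). Ccnd1, Sp5, Ascl2 and Cd44 had none in either library.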

How the data were processed

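ATAC-seq peak lists were deposited per library for W2 and M6, with no pooling. The submitters' processing notes name build mm10 and the tools deepTools, SAMtools 1.4, Bowtie2 and Trim Galore 0.5.0, without their order or role. The sources used here do not name the peak caller or its threshold. The deposited fold is a ratio, on a linear scale, of summit to local background. The deposited −log10 p and −log10 q come from the authors' caller. The deposited score was within 1 of 10 times the −log10 q and was not used. These per-peak values are the authors'. Ranks were taken within each list, and W2 and M6 values were set side by side without a test or further scaling. Peaks on other sequences (30 in W2 and 24 in M6) were left out.

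Pileup and background were recovered for 100% of peaks from fold, taken as (pileup + 1)/(background + 1), and a Poisson upper-tail p, within 0.001 of the −log10 p. The step was tested on simulated data. Tags are not independent molecules, so intervals (95%, exact binomial or Poisson) cover counting error only. Gene positions came from RefSeq (GRCm38.p6) without exons, so exons, introns and UTRs were not analysed here. All 48 members and all list genes were matched by symbol. A peak was shared when 1 bp or more of it overlapped a peak of the other library. Positions are 1-based. All members are accounted for. Full values are given for members with a W2 peak and for those with the 3 highest M6 −log10 q per role, and other pathway genes are named by a W2 peak or the 5 highest M6 values, with a few more named after their values were seen. The members, lists and rules were chosen with earlier results of these data known. Alternatives were equal peak numbers (ranked by −log10 q or fold), a −log10 q of at least 5, loci with 0 or 50 kb flanks, gene ends of 2 kb, a 50% overlap, and leaving out peaks at ends of other genes. Python 3.11.15, pandas 2.3.3 and SciPy 1.17.1 were used.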

Additional observations from a re-analysis of the deposited data

How the results depend on the processing

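No paired analysis was possible because each time point had 1 library. Of 92 alternative values for the counts and shares, 59 stayed within 1.5 times the reported value (for shares, within its interval), and 33 did not. Ranking by −log10 q, equal numbers of peaks lowered the M6 values to 10 members, 13 peaks, 1 ligand, 4 receptors, 1 nuclear effector, 5 members with a gene-end peak and 20 other pathway genes, and raised the share of M6 peaks shared with W2 to 61.5%. Ranking by fold gave 10 members, 13 peaks, 2 ligands, 3 receptors, 1 nuclear effector and 4 members with a gene-end peak. Under these rankings the M6 minus W2 difference in locus peaks turned from 1 to -1 at Wnt10b (by −log10 q) and Lrp6 (both rankings), and 3 (−log10 q) or 2 (fold) members had more peaks in M6 while 4 had fewer. A −log10 q of at least 5 left 30 M6 peaks, 4 ligands and 1 nuclear effector in M6, and 1 nuclear effector in W2. Gene bodies alone gave W2 7 members, 10 peaks, 1 ligand, 2 receptors, 1 nuclear effector and 14 other pathway genes. Flanks of 50 kb gave W2 24 members, 32 peaks, 8 ligands and 9 receptors, and M6 100 peaks and 15 ligands. Without peaks at ends of other genes, W2 had 1 ligand, 3 receptors and 1 nuclear effector. A smaller flank or list holds fewer peaks by construction. Weak peaks near the calling threshold limit what a missing peak can show at this depth.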
